A study of Homo sapiens with 64 samples.

Results

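H1703, an established human non-small cell lung cancer line, was exposed for 24 hours to MYCi975 and TMP195 together, and its RNA was compared with that of H1703 cells given the solvent DMSO. The comparison holds the 4 libraries labelled H1703 with the combination (Combo) and the 4 labelled H1703 with vehicle (Vehicle), chosen by line and treatment, out of 64 libraries in the series. Combo cells received 5 µM MYCi975, a compound that binds and inhibits the MYC protein, plus 25 µM TMP195, which inhibits the class IIa histone deacetylases. H1703 cells with 5 µM MYCi975 alone or 25 µM TMP195 alone (4 libraries each) are used to see where the combination differed from either compound, and the Combo and Vehicle libraries of H460, H838 and H1755, 3 other non-small cell lung cancer lines given the same doses for the same time, to see where H1703 differed from them. All cells were kept in RPMI medium with serum and received compound or DMSO the day after plating. Each group stands for 1 established line, and no label states that replicates come from separate cultures, so the p-values measure only the spread between these samples, which may be technical.

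MYC pairs with MAX on E-box sequences and drives genes of cell growth, ribosome production and division. The class IIa deacetylases HDAC4, HDAC5, HDAC7 and HDAC9 are recruited by MEF2 factors and other DNA-binding proteins and keep their target genes repressed. Several pathways described below have a master factor: ATF4 switches on amino acid supply and stress genes when translation initiation is slowed, the E2F factors switch on DNA replication genes before S phase, FOXM1 and MYBL2 switch on mitotic genes in G2, SREBF2 switches on cholesterol synthesis when sterols run low, and HSF1 switches on cytosolic chaperones.

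The 8 libraries held 21419966 to 27224771 counted reads. These 8 libraries correlated with the mean of the other H1703 libraries at 0.982 or more over the 2000 most variable genes, and with another line at 0.293 or less. Values for the MYCi975 and TMP195 libraries are not given. All 16 H1703 libraries fell into sets by their share of mitochondrial ribosomal RNA. It was 6.52 to 7.84% of counts in Combo replicates 2 and 4 and in replicate 4 of each of the other treatments, and 10.1 to 13.7% in the other 11. The labels name no batch. Counts for Combo replicates 1 and 3 against Vehicle replicates 1 to 3, the higher-rRNA libraries alone, are therefore given beside the main ones where they differ. Each library was placed on a line from the Vehicle mean (0) to the Combo mean (1) over all genes tested, itself left out of its group's mean. The Combo libraries stood at 0.787, 0.864, 0.783 and 1.15, and the Vehicle libraries at 0.029, 0.067, 0.034 and 0.261. The library labelled MYCi975 replicate 4 stood at 1.00, where the other MYCi975 libraries stood at 0.339 to 0.388, so each comparison with MYCi975 is given with and without it. TMP195 replicate 4 stood at 0.699 and the other TMP195 libraries at 0.447 to 0.466. Summed mesenchymal markers, nearly all of them VIM and PDGFRA, were at 2465 to 3064 CPM in Combo and 2244 to 2679 CPM in Vehicle. FN1 had 27.6 to 33.3 CPM in Combo and 19.8 to 22.5 CPM in Vehicle. SNAI2, COL1A1, COL1A2 and PDGFRB did not exceed 0.624 CPM in any library of the 2 groups. Epithelial markers summed to 47.1 to 63.6 CPM in Combo and 46.0 to 63.2 CPM in Vehicle. CPM, the usual count unit relative to depth, was taken over the deposited total for the markers in this paragraph and over the TMM-adjusted library size elsewhere. Squamous markers summed to 6.80 to 13.3 CPM in Combo and 13.8 to 20.3 CPM in Vehicle, with KRT5, KRT6A, KRT14, DSG3 and PKP1 at 0. That sum was nearly all SOX2, at 6.59 to 13.3 CPM in Combo and 13.7 to 20.3 CPM in Vehicle. Blood and immune markers summed to 0.700 to 1.05 CPM in Combo and 0.304 to 0.580 CPM in Vehicle, with HBB at 0, and endothelial markers to 0.0878 to 0.700 CPM and 0.0434 to 0.331 CPM, with CDH5 and KDR at 0. Where these marker sums differ between the groups, their part in the results below was not tested.

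The combination changed a large part of the transcriptome. Of 20827 genes tested with edgeR's quasi-likelihood F test, 7986 (38.3%) passed an adjusted p of 0.05, 4136 of them higher in Combo (19.9%) and 3850 lower (18.5%). Among them 1252 were higher and 733 lower by at least 1 on the log2 scale. The groups did not overlap in any library for 7305 genes, 35.1% of those tested. The higher-rRNA libraries alone gave 7638 called genes. The median log2 fold change over all genes tested was 0.02. Counts for gene lists below are to be read against 19.9% higher and 18.5% lower, and a share near those is no result about the list. Genes were grouped in 35 lists, of which DNA replication genes had the lowest median (-1.11) and secreted stress factors the highest (1.45).

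**Figure D1:**
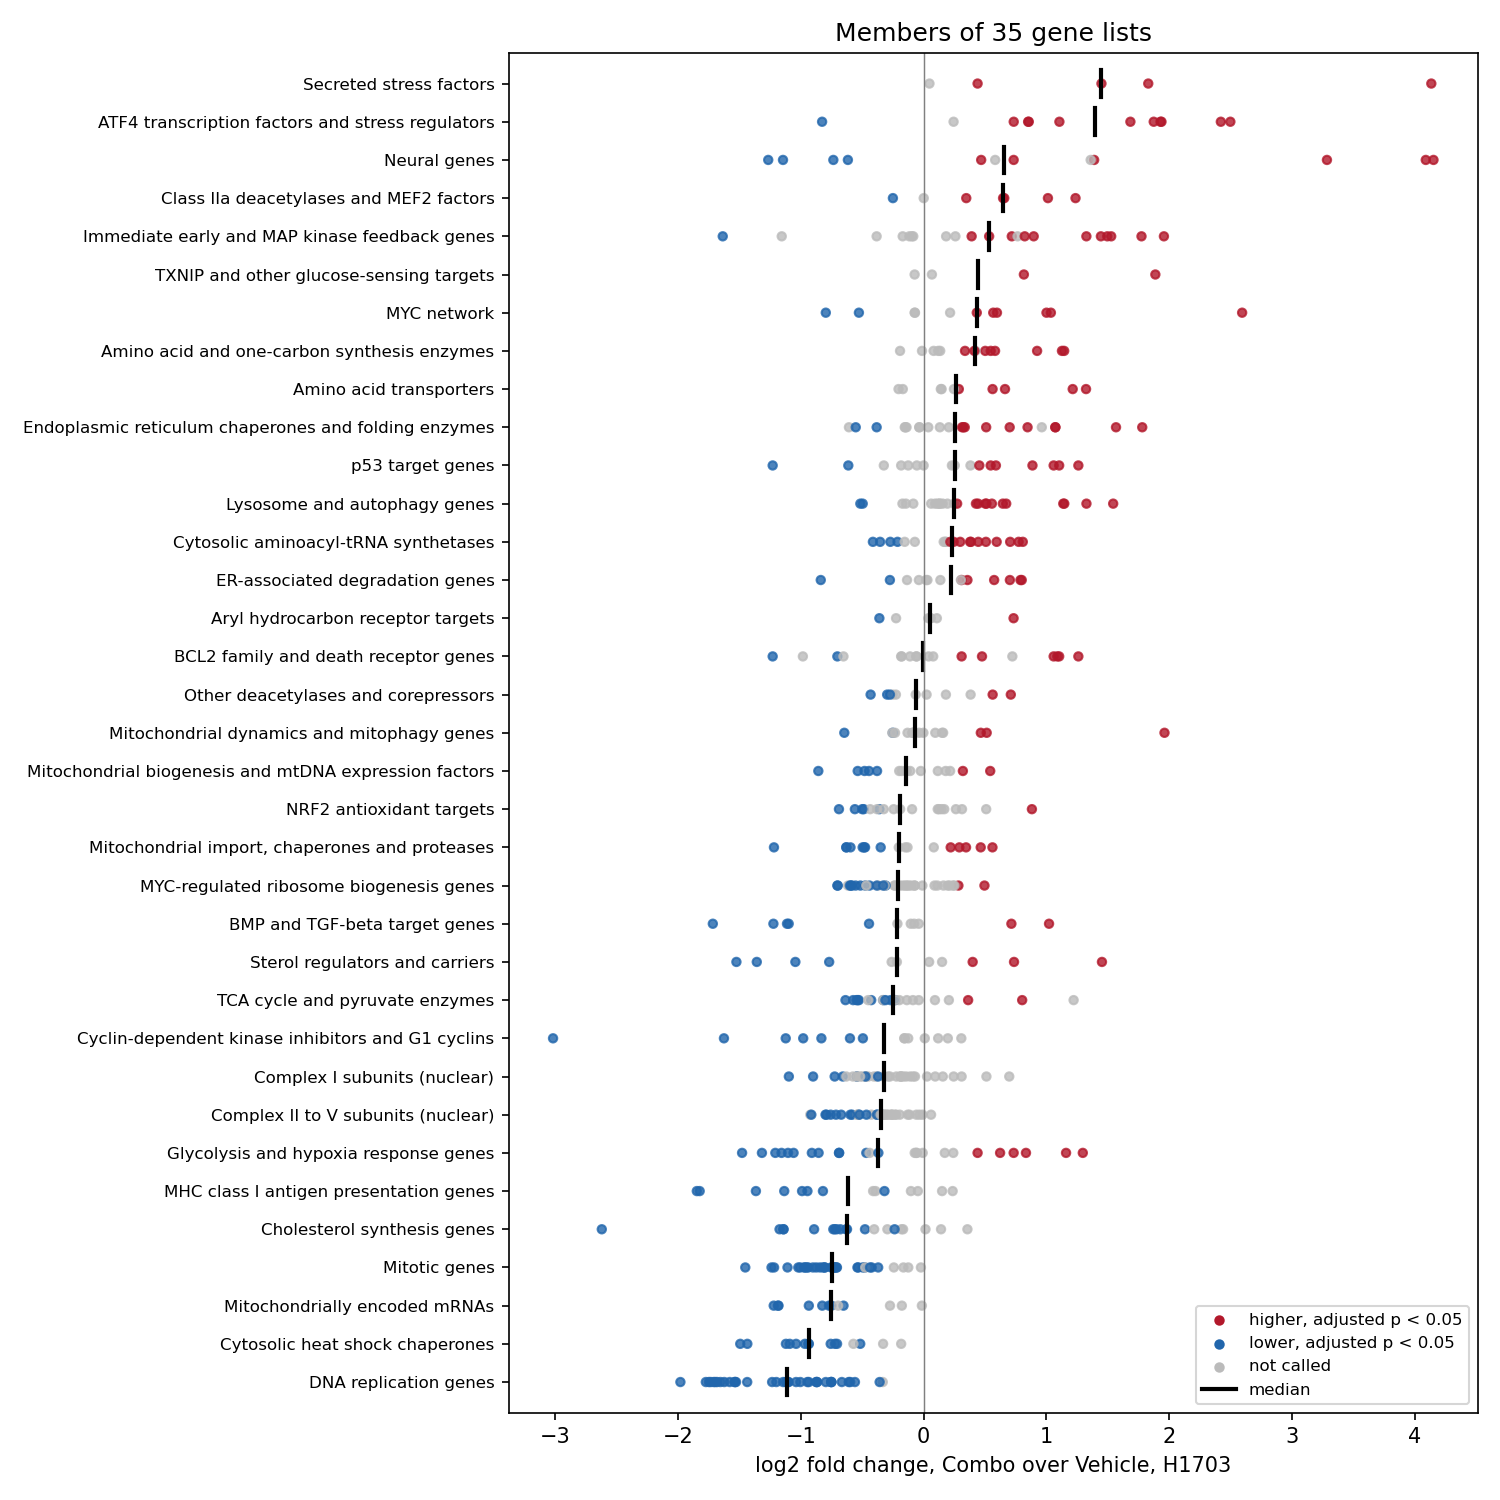
Log2 fold changes, Combo over Vehicle in H1703 (x axis), of every tested member of 35 gene lists (rows, ordered by median). Red points passed an adjusted p of 0.05 as higher, blue points as lower and grey points did not pass; the black bar is the list's median. DNA replication genes, with a median of -1.11, lie left of 0 throughout. ATF4-linked factors and stress genes, with a median of 1.40, lie right of 0 but for ATF5 (-0.83).

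The RNA of the compounds' protein targets is given first; it is no check of the labels, since inhibition of a protein need not move its RNA. MYC had 104, 81.3, 104 and 132 CPM in Combo, against 88.8, 73.4, 78.9 and 71.2 CPM in Vehicle. It rose in Combo (log2 fold change 0.43 ± 0.12 (SE), adjusted p = 0.00849), although Combo replicate 2 lay inside the Vehicle range, so the groups overlap. MYC's partner MAX was at -0.07 ± 0.12 (adjusted p = 0.684). HDAC5 (chromosome 17, 44076746 to 44123702, GRCh38) had 107, 78.1, 98.4 and 75.2 CPM in Combo, against 45.3, 48.3, 49.8 and 34.5 CPM in Vehicle. All Combo libraries lay above all Vehicle libraries, and HDAC5 rose (log2 fold change 1.01 ± 0.16 (SE), adjusted p = 0.000112). HDAC9 rose by 0.35 ± 0.13 (adjusted p = 0.0374) with overlapping groups, HDAC4 fell by 0.25 ± 0.09 (adjusted p = 0.0423), and HDAC7 was at 0.00 ± 0.13 (adjusted p = 0.997). The call of HDAC4 was lost without Combo replicate 2 or 4 or Vehicle replicate 1, 2 or 3, and that of HDAC9 without Combo replicate 2, 3 or 4 or Vehicle replicate 1, 2 or 4, with adjusted p up to 0.134 and 0.138. In the higher-rRNA libraries neither was called, with HDAC4 at -0.20 and HDAC9 at 0.18 (adjusted p = 0.0510 and 0.357). Both calls were also lost without the filter on low counts (adjusted p = 0.126 and 0.0503). TXNIP, a brake on glucose uptake, had 0 to 7 counts per library and was not tested.

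Around these targets, 6 of 11 tested members of the MYC network rose and 2 fell (median 0.43). MYCL, a MYC relative, rose from a low level and averaged 6.29 ± 1.26 CPM in Combo and 1.04 ± 0.247 CPM in Vehicle (SD, n = 4 each; log2 fold change 2.59 ± 0.26 (SE), adjusted p = 1.80e-06). MXI1, which competes with MYC for MAX, rose by 1.04 ± 0.14 (adjusted p = 2.08e-05), and MLX, the partner of glucose-sensing factors, by 0.60 ± 0.12 (adjusted p = 0.000929). MXD3, another MAX partner, fell by 0.80 ± 0.15 (adjusted p = 0.000447). Of 7 tested class IIa deacetylases and MEF2 factors, 5 rose and 1 fell (median 0.65); in the higher-rRNA libraries 4 rose and 0 fell. The MEF2 factors MEF2A, MEF2C and MEF2D, DNA-binding partners of class IIa deacetylases, rose by 1.24 ± 0.14, 0.66 ± 0.18 and 0.65 ± 0.10 (adjusted p = 7.83e-06, 0.00876 and 0.000101). Among the other deacetylases and corepressors 2 of 11 rose, HDAC6 (0.56 ± 0.10) and HDAC11 (0.71 ± 0.13), and 3 fell, among them HDAC3 (-0.43 ± 0.10) and the corepressor SIN3A (-0.27 ± 0.07).

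Genes of the integrated stress response rose. Of 12 tested ATF4-linked factors and stress genes, 10 rose and 1 fell (83.3% and 8.33%, median 1.40). In the higher-rRNA libraries 11 rose and 1 fell. DDIT3 (CHOP), a transcription factor of stress-induced cell death (chromosome 12, 57516588 to 57521737), had 172, 189, 162 and 230.2 CPM in Combo, against 33.3, 30.2, 31.9 and 37.99 CPM in Vehicle. The lowest Combo library was far above the highest Vehicle library (log2 fold change 2.50 ± 0.30 (SE), adjusted p = 8.64e-06). TRIB3, a pseudokinase that dampens AKT and ATF4, had 54.8, 57.9, 64.7 and 58.5 CPM in Combo, against 19.6, 15.7, 15.7 and 13.3 CPM in Vehicle. Its groups were as clearly apart (log2 fold change 1.87 ± 0.11 (SE), adjusted p = 3.17e-08). PPP1R15A (GADD34), the phosphatase subunit that restarts translation, had 187, 147, 153 and 234 CPM in Combo, against 33.5, 38.1, 33.4 and 29.6 CPM in Vehicle. Combo replicate 4 was its highest library, and the groups did not overlap (log2 fold change 2.42 ± 0.23 (SE), adjusted p = 1.45e-06). ATF4 itself rose by 0.85 ± 0.09 and ATF3, a repressor induced by stress, by 1.94 ± 0.21 (adjusted p = 4.89e-06 and 3.73e-06). Both were chosen after their values were seen. DDIT4 and SESN2, inhibitors of mTORC1, rose by 1.93 ± 0.14 and 1.68 ± 0.14 (adjusted p = 1.82e-07 and 4.24e-07), and CHAC1, a glutathione-degrading enzyme, by 1.11 ± 0.17 (adjusted p = 6.73e-05). ATF5, a relative of ATF4, was the member that fell, by 0.83 ± 0.15 (adjusted p = 0.000330).

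**Figure D2:**
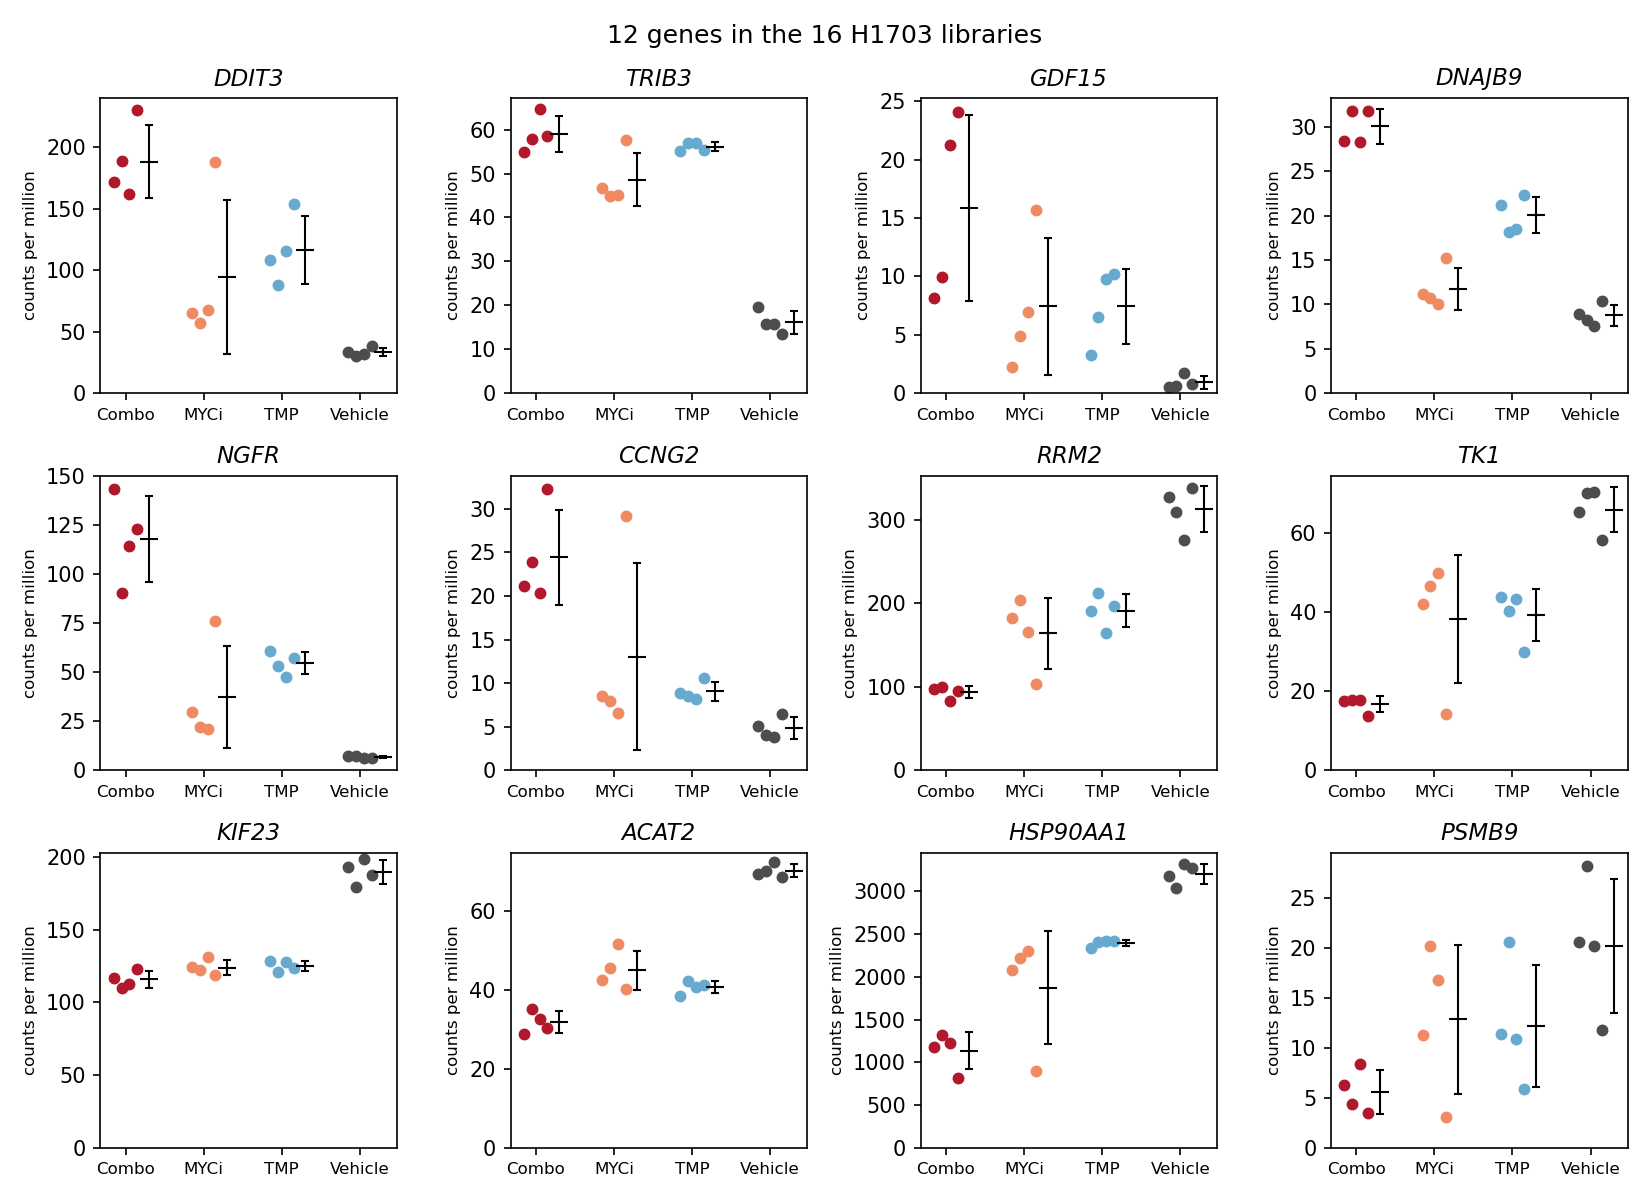
CPM (y axis, TMM-scaled, from 0) of 12 genes in each H1703 library (points) under the treatments on the x axis; the horizontal bar is the mean and the error bar the SD of 4 libraries. MYCi is MYCi975 and TMP is TMP195. No Combo point overlaps a Vehicle point in any panel, and in the panels of DDIT3, CCNG2 and TK1 the point of MYCi975 replicate 4 lies with the Combo points.

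Amino acid supply genes rose in part. Of 14 enzymes of amino acid and folate-linked carbon metabolism, 8 rose and 0 fell (57.1% higher, median 0.42); in the higher-rRNA libraries 9 rose. ASNS, the asparagine synthetase (chromosome 7, 97852118 to 97872542), had 6.85, 6.22, 7.88 and 11.7 CPM in Combo, against 3.86, 2.41, 4.19 and 4.30 CPM in Vehicle. Its level was low, but each Combo library was above each Vehicle library (log2 fold change 1.14 ± 0.23 (SE), adjusted p = 0.000831). PCK2, a mitochondrial enzyme that feeds carbon into serine and glycerol, had 104, 101, 109 and 97.6 CPM in Combo, against 46.4, 46.5, 46.0 and 49.8 CPM in Vehicle. Vehicle replicate 4 was the highest Vehicle library and still about as far below Combo as the others (log2 fold change 1.13 ± 0.07 (SE), adjusted p = 3.45e-08). The mitochondrial folate enzymes MTHFD2 and MTHFD1L rose by 0.55 ± 0.08 and 0.50 ± 0.07 (adjusted p = 7.70e-05 and 4.32e-05). Of 10 amino acid transporters 5 rose and 0 fell, among them SLC3A2, the chain shared by heteromeric transporters (1.21 ± 0.18, adjusted p = 5.29e-05), and the neutral amino acid carriers SLC1A4 (0.66 ± 0.09), SLC38A2 (0.56 ± 0.16) and SLC43A1 (1.32 ± 0.20). Cytosolic aminoacyl-tRNA synthetases, which load amino acids on tRNA, went both ways. Of 20, 11 rose and 4 fell (55% and 20%; 2 fell without Vehicle replicate 1, and 12 rose in the higher-rRNA libraries). GARS1 (0.81 ± 0.07), WARS1 (0.77 ± 0.08), AARS1 (0.70 ± 0.08) and SARS1 (0.59 ± 0.09) rose, with adjusted p = 4.29e-07, 2.79e-06, 6.23e-06 and 6.28e-05. FARSA, for phenylalanine, fell by 0.41 ± 0.14 (adjusted p = 0.0310), with overlapping groups, a call that was lost without Combo replicate 2 or 4 or Vehicle replicate 1, 2 or 3, with adjusted p up to 0.0959.

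Promoters of CHAC1 and ASNS are shown because they hold the composite element that ATF4 is known to bind with a C/EBP partner, searched as TGATGNAA on both strands in the 250 bases before the transcription start of RefSeq (GRCh38.p14). Capitals mark the match. CHAC1 (chr15:40953221-40953470, plus strand) has it 209 bases before the start on the opposite strand, and ASNS (chr7:97872409-97872658, minus strand) 68 bases before the start.
CHAC1: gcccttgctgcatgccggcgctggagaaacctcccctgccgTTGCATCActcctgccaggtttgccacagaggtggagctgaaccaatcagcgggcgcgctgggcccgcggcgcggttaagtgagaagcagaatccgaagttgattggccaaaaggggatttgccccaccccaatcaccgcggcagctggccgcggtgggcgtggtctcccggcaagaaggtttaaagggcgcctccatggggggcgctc
ASNS: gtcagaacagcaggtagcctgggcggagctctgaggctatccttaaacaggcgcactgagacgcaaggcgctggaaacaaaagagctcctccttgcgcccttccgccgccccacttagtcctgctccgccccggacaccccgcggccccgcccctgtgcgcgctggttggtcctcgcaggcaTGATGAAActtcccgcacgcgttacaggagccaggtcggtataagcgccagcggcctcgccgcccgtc
A match was found in 2 of the 11 ATF4-linked factors and stress genes with a promoter in the table (18.2%), ATF3 and CHAC1, in 2 of 9 amino acid and folate enzymes (22.2%), ASNS and MTHFD1L, and in 2 of 16 aminoacyl-tRNA synthetases (12.5%). Of all 27305 promoters in the table, 3.19% held one. A match is a run of letters and not a measured binding site.

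Of 5 tested genes for secreted stress factors, 4 rose. GDF15, a hormone-like TGF-beta relative released by stressed cells (chromosome 19, 18374731 to 18389176), had 8.15, 9.96, 21.3 and 24.1 CPM in Combo, against 0.518, 0.581, 1.73 and 0.790 CPM in Vehicle. The Combo libraries varied widely among themselves, and all were above Vehicle (log2 fold change 4.14 ± 0.59 (SE), adjusted p = 4.26e-05). ADM2, a peptide hormone, rose by 1.45 ± 0.13, STC2, a secreted glycoprotein, by 1.83 ± 0.31, and VEGFA, the vascular growth factor, by 0.44 ± 0.06 (adjusted p = 8.50e-07, 0.000189 and 5.70e-05).

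Genes of protein folding in the endoplasmic reticulum rose in part. Of 22 chaperones and folding enzymes 10 rose and 2 fell (45.5% and 9.09%, median 0.26); in the higher-rRNA libraries 12 rose and 3 fell. HSPA5 (BiP), the main chaperone of the compartment (chromosome 9, 125234853 to 125241330), was chosen after its values were seen and had 968, 1326, 1276 and 1666 CPM in Combo, against 422, 436, 460.2 and 449 CPM in Vehicle. It rose by 1.57 ± 0.24 (adjusted p = 7.03e-05). DNAJB9, a co-chaperone that restrains the stress sensor IRE1, had 28.4, 31.8, 28.3 and 31.8 CPM in Combo, against 8.92, 8.17, 7.52 and 10.3 CPM in Vehicle. The gap between the groups was wider than the spread within either (log2 fold change 1.78 ± 0.13 (SE), adjusted p = 1.91e-07). CREB3L2, a membrane-bound transcription factor of secretory capacity, had 63.2, 64.4, 72.7 and 62.0 CPM in Combo, against 32.4, 31.9, 30.4 and 29.9 CPM in Vehicle. Its groups were apart by about as much as Vehicle's own level (log2 fold change 1.07 ± 0.08 (SE), adjusted p = 1.82e-07). The stress sensors and factors ATF6 and XBP1 rose by 1.07 ± 0.11 and 0.85 ± 0.10 (adjusted p = 1.80e-06 and 9.97e-06). CRELD2, a folding factor for secreted proteins, fell by 0.55 ± 0.15 (adjusted p = 0.00807). Of 14 genes of ER-associated degradation 6 rose and 2 fell (7 and 2 in the higher-rRNA libraries), with HERPUD1 (0.80 ± 0.10), SELENOS (0.79 ± 0.12), EDEM2 (0.70 ± 0.10) and SEL1L (0.57 ± 0.09) among the risers. VCP, the ATPase that extracts proteins for the proteasome and also works outside this pathway, fell by 0.84 ± 0.15 (adjusted p = 0.000252).

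Cholesterol synthesis genes fell. Of 20, 13 fell and 0 rose (65%, median -0.63); in the higher-rRNA libraries 13 fell and 1 rose. ACAT2, the first enzyme of the pathway, had 28.9, 35.2, 32.6 and 30.2 CPM in Combo, against 69.3, 69.9, 72.4 and 68.6 CPM in Vehicle. The Vehicle libraries spread little and lay far above Combo (log2 fold change -1.14 ± 0.09 (SE), adjusted p = 1.99e-07). DHCR7, a late reductase, fell by 1.14 ± 0.11 and IDI1, an isomerase of the isoprenoid steps, by 0.89 ± 0.09 (adjusted p = 1.52e-06 and 2.83e-06). Among sterol regulators and carriers 4 of 11 fell and 3 rose. The feedback regulator INSIG1, the master factor SREBF2 and the sterol carrier STARD4 fell by 1.04 ± 0.13, 0.77 ± 0.10 and 1.53 ± 0.21 (adjusted p = 1.28e-05, 2.33e-05 and 3.29e-05). ABCA1, which exports cholesterol and is induced by sterol excess, rose by 1.45 ± 0.29 (adjusted p = 0.000900). The sterol regulatory element, searched as TCACNCCAC, was found in 0 of the 15 cholesterol synthesis promoters in the table and in 1 of 10 for the regulators, SREBF2, against 0.875% of all promoters. At so low a share, lists of this size cannot show a lack of the element. Only this 1 form of it was searched, in 250 bases.

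DNA replication genes fell most. Of 38 tested, 37 fell and 0 rose (97.4%, median -1.11), and in the higher-rRNA libraries the count was the same. In all 38 the Combo and Vehicle libraries did not overlap, against 35.1% of all genes tested. RRM2, the subunit of ribonucleotide reductase made in S phase (chromosome 2, 10120698 to 10131419), had 97.1, 100.1, 82.9 and 95.3 CPM in Combo, against 327, 309, 276 and 338 CPM in Vehicle. The Combo libraries were close together and far below Vehicle (log2 fold change -1.73 ± 0.15 (SE), adjusted p = 6.34e-07). PCNA, the sliding clamp of DNA polymerase, had 37.1, 42.9, 39.8 and 30.1 CPM in Combo, against 126, 115, 128 and 143 CPM in Vehicle. No library of either group came near the other group (log2 fold change -1.77 ± 0.16 (SE), adjusted p = 9.71e-07). TK1, the thymidine kinase of S phase, had 17.6, 17.8, 17.9 and 13.7 CPM in Combo, against 65.2, 70, 70.3 and 58.1 CPM in Vehicle. Combo replicate 4 was below the other Combo libraries, which were close together (log2 fold change -1.98 ± 0.26 (SE), adjusted p = 1.84e-05). The helicase subunits MCM4 and MCM6 fell by 1.53 ± 0.17 and 0.61 ± 0.12, RRM1, the other reductase subunit, by 0.75 ± 0.08, and the transcription factor E2F1 by 1.14 ± 0.20 (adjusted p = 5.54e-06, 0.000572, 5.27e-06 and 0.000313); MCM6 and E2F1 were chosen after their values were seen. In bulk RNA, fewer cells in S phase and less of these RNAs in each cell cannot be told apart.

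Outside the list, FAM111B, a protease made in S phase, and PCLAF, a PCNA-binding protein, were among the largest falls, at -2.62 ± 0.26 and -1.83 ± 0.16 (adjusted p = 1.93e-06 and 6.18e-07). So were the histone genes H2AC12 and H2AC4, at -2.22 ± 0.30 and -2.02 ± 0.35, whose coding sequences resemble those of other histone genes, so that the split of reads between copies is uncertain. CDKN2C, an inhibitor of CDK4 and CDK6 that is itself an E2F target (chromosome 1, 50960745 to 50974633), had 5.37, 4.09, 5.95 and 1.75 CPM in Combo, against 36.8, 41.5, 33.5 and 26.2 CPM in Vehicle. It was among the largest falls at a mean of 5 CPM or more without overlap, the rule for named genes (log2 fold change -3.02 ± 0.43 (SE), adjusted p = 4.09e-05). Of 14 cyclin-dependent kinase inhibitors and G1 cyclins 7 fell and 0 rose, with CCND3 (-1.63 ± 0.25), CDK2 (-1.12 ± 0.20) and CCNE2 (-0.98 ± 0.16) among them, whereas CDKN1A (p21) was at -0.13 ± 0.24 (adjusted p = 0.714; named after its value was seen). CCNG2, a cyclin of arrested cells, had 21.2, 23.8, 20.3 and 32.3 CPM in Combo, against 5.10, 4.02, 3.80 and 6.48 CPM in Vehicle. It rose (log2 fold change 2.33 ± 0.37 (SE), adjusted p = 0.000100), and Combo replicate 4 was its highest library.

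Mitotic genes fell as a group too, by less. Of 35, 30 fell and 0 rose (85.7%, median -0.74); in the higher-rRNA libraries 31 fell. KIF20B, a kinesin of cell separation that stands outside the list, had 100.1, 91.0, 102 and 102 CPM in Combo, against 213, 211, 230.2 and 227 CPM in Vehicle. Combo replicate 2 was below the other Combo libraries, and all were far below Vehicle (log2 fold change -1.16 ± 0.08 (SE), adjusted p = 1.82e-07). KIF23, a kinesin of the midzone (chromosome 15, 69414246 to 69448427), had 117, 110.0, 113 and 123 CPM in Combo, against 193, 179, 198 and 187 CPM in Vehicle. Spread was small in both groups (log2 fold change -0.71 ± 0.07 (SE), adjusted p = 9.96e-07). The kinesins KIF20A and KIF11, the furrow protein ANLN and the cyclin CCNB1, this last chosen after its value was seen, fell by 1.24 ± 0.11, 0.97 ± 0.08, 1.11 ± 0.10 and 0.71 ± 0.10 (adjusted p = 9.71e-07, 4.00e-07, 6.34e-07 and 2.68e-05). CENPI, of the kinetochore, and FBXO5, an inhibitor of the anaphase-promoting complex, were among the falls with the smallest p, at -1.19 ± 0.09 and -1.11 ± 0.09.

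Promoters of a replication and a mitotic class are shown because the sequence elements known from these classes divided the lists. The E2F element, searched as TTTNNCGC on both strands, was in 16 of 33 replication promoters (48.5%), in 2 of 30 mitotic promoters (6.67%) and in 5.93% of all 27305. The cell cycle homology region, searched as TTTGAA on both strands, was in 1 of 33 replication promoters (3.03%), in 17 of 30 mitotic promoters (56.7%) and in 13.6% of all. No promoter held an E2F match that overlapped a cell cycle homology match. The CCAAT box was in 24 of 30 mitotic promoters (80%), in 17 of 21 for endoplasmic reticulum chaperones (81%) and in 33% of all. PCNA (chr20:5126623-5126872, minus strand) has an E2F element 59 bases before the start, MCM6 (chr2:135876444-135876693, minus strand) has 4 in 2 overlapping pairs between 152 and 86 bases before it, and KIF23 (chr15:69414099-69414348, plus strand) has TTTGAA 55 bases before it. Capitals mark these matches.
PCNA: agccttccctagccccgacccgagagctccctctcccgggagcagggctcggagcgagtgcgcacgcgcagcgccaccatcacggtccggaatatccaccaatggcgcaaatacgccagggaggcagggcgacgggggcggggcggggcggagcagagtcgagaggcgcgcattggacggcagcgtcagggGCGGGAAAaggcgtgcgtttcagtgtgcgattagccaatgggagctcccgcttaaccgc
MCM6: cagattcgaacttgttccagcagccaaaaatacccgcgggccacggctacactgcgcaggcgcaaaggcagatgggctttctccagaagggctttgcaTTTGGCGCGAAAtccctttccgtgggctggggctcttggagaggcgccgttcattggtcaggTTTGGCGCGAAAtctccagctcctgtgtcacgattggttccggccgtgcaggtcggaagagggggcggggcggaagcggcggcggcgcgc
KIF23: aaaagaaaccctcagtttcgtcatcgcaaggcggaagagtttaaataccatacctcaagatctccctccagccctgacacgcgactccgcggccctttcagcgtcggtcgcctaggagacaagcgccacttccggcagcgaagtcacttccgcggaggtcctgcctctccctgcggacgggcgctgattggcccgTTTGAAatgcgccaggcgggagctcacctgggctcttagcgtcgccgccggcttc
The genes with these promoters fell by 1.77 ± 0.16, 0.61 ± 0.12 and 0.71 ± 0.07 on the log2 scale.

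Genes of growth fell less evenly. Of 36 MYC-regulated ribosome biogenesis genes 12 fell and 2 rose (33.3% and 5.56%, median -0.21); in the higher-rRNA libraries 16 fell. ODC1, the first enzyme of polyamine synthesis and a classic MYC target (chromosome 2, 10439968 to 10448504), had 168, 188, 186 and 159 CPM in Combo, against 299, 278, 266 and 296 CPM in Vehicle. It fell (log2 fold change -0.70 ± 0.10 (SE), adjusted p = 2.81e-05) without overlap. The ribosome assembly genes MRTO4 and GRWD1 and POLR1A, the large subunit of RNA polymerase I, fell by 0.70 ± 0.10, 0.60 ± 0.10 and 0.38 ± 0.07 (adjusted p = 4.26e-05, 0.000155 and 0.000456), while NOB1, a nuclease of small subunit maturation, rose by 0.50 ± 0.12 (adjusted p = 0.00379). The E-box CACGTG was in 3 of the list's 31 promoters in the table (9.68%), those of UTP20, IPO4 and SRM, against 6.49% of all.

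Cytosolic heat shock chaperones fell. Of 15 tested, 12 fell and 0 rose (80%, median -0.94); in the higher-rRNA libraries 13 fell. HSP90AA1, the inducible HSP90 (chromosome 14, 102080738 to 102139699), had 1178, 1319, 1230.0 and 822 CPM in Combo, against 3185, 3039.7, 3317 and 3268 CPM in Vehicle. The highest Combo library was well below the lowest Vehicle library (log2 fold change -1.49 ± 0.21 (SE), adjusted p = 3.09e-05). HSPA8, the constitutive HSP70, had 917, 991, 902 and 717 CPM in Combo, and averaged 882 ± 117 CPM in Combo against 1878 ± 101 CPM in Vehicle (SD, n = 4 each), where its highest library had 1966 CPM. Its groups did not overlap (log2 fold change -1.09 ± 0.16 (SE), adjusted p = 4.22e-05). HSPH1, a nucleotide exchange factor of HSP70, and HSP90AB1, the constitutive HSP90, fell by 1.12 ± 0.13 and 0.94 ± 0.14 (adjusted p = 7.83e-06 and 4.88e-05). The promoter of HSPA8 (chr11:123062137-123062386, minus strand) is shown because it holds 2 matches to the core of the heat shock element, searched as GAANNTTC, at 230 and 50 bases before the start, in capitals.
HSPA8: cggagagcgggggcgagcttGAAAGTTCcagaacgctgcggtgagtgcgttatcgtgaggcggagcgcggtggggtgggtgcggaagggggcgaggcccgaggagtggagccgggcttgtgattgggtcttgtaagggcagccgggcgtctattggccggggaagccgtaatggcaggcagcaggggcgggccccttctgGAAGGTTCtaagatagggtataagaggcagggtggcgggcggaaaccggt
This core was in 6 of the 15 list members with a promoter in the table (40%) and in 5.85% of all promoters. These 15 are not the same genes as the 15 tested. The matches were in HSPA8, HSPB1, DNAJA1 and CHORDC1, and in HSPA1A and HSPA1B, which were not tested.

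Mitochondrially encoded mRNAs were lower in part. Of 13, 8 fell and 0 rose (61.5%, median -0.75). For 3 of the 13 the groups did not overlap, against 35.1% of all genes tested, so this count does not set the list apart. In the higher-rRNA libraries 9 fell, and 5 fell without Combo replicate 4, without Vehicle replicate 1 or without Vehicle replicate 3. MT-ATP6, a subunit of ATP synthase, had 779, 902, 1209 and 536 CPM in Combo, against 2150.1, 2039.5, 2358 and 1226 CPM in Vehicle. Vehicle replicate 4 was far below the other Vehicle libraries but above every Combo library (log2 fold change -1.18 ± 0.31 (SE), adjusted p = 0.00567). MT-CO3 (-1.22 ± 0.32), MT-ND6 (-0.75 ± 0.20) and MT-ND3 (-0.83 ± 0.22) also fell (adjusted p = 0.00633, 0.00606 and 0.00649). MT-ND6 lies opposite other mitochondrial transcripts and MT-ATP6 overlaps MT-ATP8, and the strand setting of the counting is not given in the sources used here, so their reads may be shared. MT-CO1, the largest of these mRNAs by count, was chosen after its values were seen and had 8986, 10521, 11229 and 9006 CPM in Combo, against 10206, 10023, 9361 and 10549 CPM in Vehicle. Its groups overlapped (log2 fold change -0.01 ± 0.09 (SE), adjusted p = 0.923), and MT-ND4 was at -0.18 ± 0.27 (adjusted p = 0.635). The summed share of the 13 mRNAs was 2.06 ± 0.37% of counts in Combo and 2.54 ± 0.28% in Vehicle (SD, n = 4 each), a difference of -0.48 percentage points that missed the threshold in an exact 2-sided permutation test (p = 0.0571, where the smallest possible was 0.0286). Within the higher-rRNA libraries the difference was -0.43 points (exact permutation p = 0.1, the smallest possible there).

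**Figure D3:**
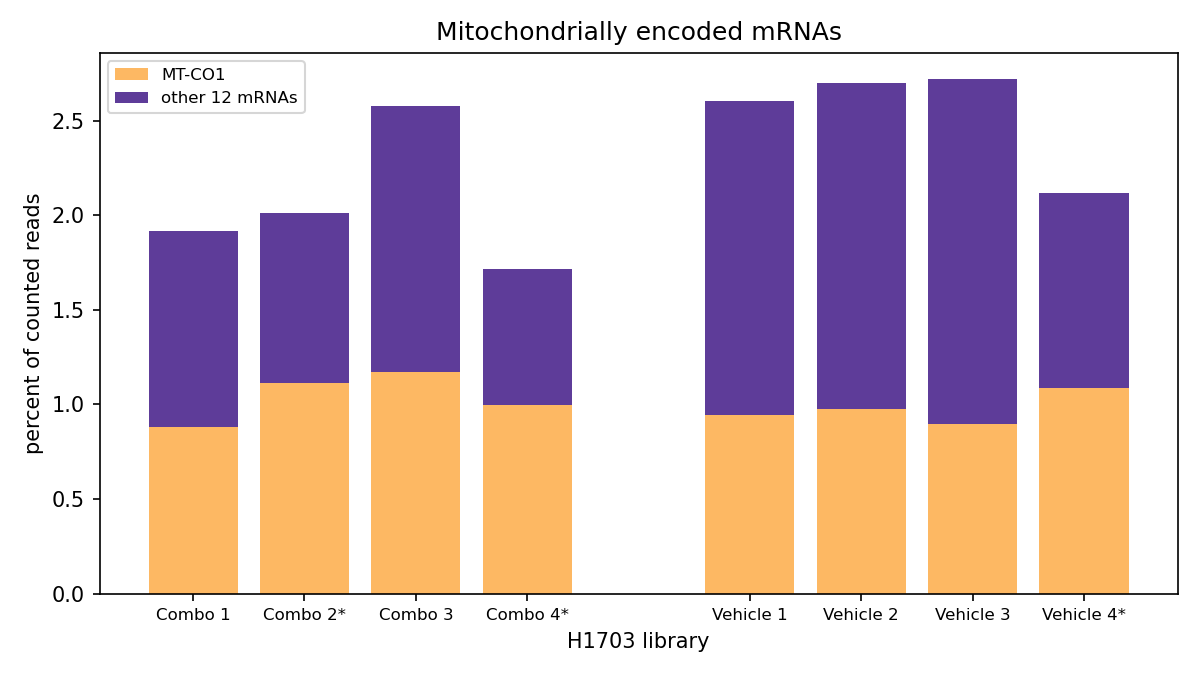
Share of all counted reads (y axis, percent, from 0) from mitochondrially encoded mRNAs in each Combo and Vehicle library of H1703 (bars), split into MT-CO1 and the other 12 mRNAs; * marks libraries of the lower-rRNA set. The 4 Combo libraries hold 1.72 to 2.58% and the 4 Vehicle libraries 2.12 to 2.72%, so the groups overlap, and Vehicle replicate 4 is the lowest Vehicle bar.

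Nuclear genes of the respiratory chain moved less. Of 37 complex I subunits 7 fell (18.9%, near the 18.5% of all genes; 4 without Combo replicate 2, 3 without Combo replicate 4, 12 without Vehicle replicate 4 or without MYCi975 replicate 4, and 10 in the higher-rRNA libraries, where 1 rose), among them NDUFB3 (-1.10 ± 0.16) and NDUFS3 (-0.47 ± 0.10). Of 38 subunits of complexes II to V 14 fell (36.8%; 7 without Combo replicate 4 and 17 in the higher-rRNA libraries), among them ATP5MC3 (-0.91 ± 0.14) and COX6B1 (-0.67 ± 0.12). With all libraries no member of either list rose. Of 22 enzymes of the TCA cycle and pyruvate entry 10 fell and 2 rose (9 and 2 in the higher-rRNA libraries). Citrate synthase (CS) fell by 0.54 ± 0.08 and IDH3A, a subunit of isocitrate dehydrogenase, by 0.57 ± 0.10 (adjusted p = 7.09e-05 and 0.000228). The pyruvate dehydrogenase kinases went opposite ways, PDK1 at 0.80 ± 0.19 and PDK2 at -0.64 ± 0.15. Of 16 factors of mitochondrial biogenesis 5 fell, including the DNA polymerase POLG (-0.86 ± 0.14), the elongation factor TEFM (-0.54 ± 0.10) and TFAM, which packs mitochondrial DNA (-0.48 ± 0.11), and 2 rose, including the polymerase's accessory subunit POLG2 (0.54 ± 0.12); in the higher-rRNA libraries 7 fell and 3 rose. Of 17 import factors and chaperones 8 fell, including HSPE1 (-1.22 ± 0.23), and 5 rose, including HSPA9, the HSP70 of the matrix (0.56 ± 0.07); 3 rose without Combo replicates 1 or 2 or Vehicle replicate 2 and in the higher-rRNA libraries, and 2 without Vehicle replicate 3. Of 17 genes of dynamics and mitophagy 3 rose and 2 fell (4 and 2 in the higher-rRNA libraries), close to the shares of all genes; the protease OMA1 rose by 0.51 ± 0.10.

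Glycolysis and hypoxia genes split. Of 25, 12 fell and 6 rose (11 and 6 in the higher-rRNA libraries). LDHA, which makes lactate, PKM, the last kinase of glycolysis, and PGK1, an earlier kinase, fell by 1.10 ± 0.13, 1.06 ± 0.15 and 0.91 ± 0.13 (adjusted p = 7.86e-06, 3.82e-05 and 4.04e-05). SLC2A3, the high-affinity glucose transporter (chromosome 12, 7919230 to 7936275), had 156, 187, 165 and 182 CPM in Combo, against 68.4, 80.7, 70.4 and 61.8 CPM in Vehicle. It went against the list's median, with every Combo library above every Vehicle library (log2 fold change 1.30 ± 0.12 (SE), adjusted p = 8.97e-07).

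Lysosome and autophagy genes rose in part. Of 25, 12 rose and 2 fell (48% and 8%, median 0.25), and the higher-rRNA libraries gave the same counts. WIPI1, which binds membranes that become autophagosomes (chromosome 17, 68420948 to 68457513), had 71.9, 65.6, 57.8 and 67.8 CPM in Combo, against 21.0, 24.6, 22.4 and 22.2 CPM in Vehicle. Its groups were wide apart (log2 fold change 1.54 ± 0.14 (SE), adjusted p = 6.34e-07). The protease CTSL, the sialidase NEU1 and the autophagosome protein MAP1LC3B rose by 1.15 ± 0.12, 1.14 ± 0.14 and 1.33 ± 0.18 (adjusted p = 2.30e-06, 1.01e-05 and 2.70e-05), while GLA, a galactosidase, fell by 0.52 ± 0.10 (adjusted p = 0.000584). CACGTG, which is also the core of the motif of TFEB and TFE3, was in 6 of the list's 19 promoters in the table (31.6%), against 6.49% of all. The 6 were LAMP1, CTSA, CTSD, NEU1, ATP6V0D1 and MCOLN1, so of the genes named above only NEU1 is among them. Whether a match goes with a rise was not tested.

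Death receptor and p53-linked genes were mixed. Of 17 p53 targets 7 rose and 2 fell, and of 18 genes of the BCL2 and death receptor families 6 rose and 2 fell (7 and 3 in the higher-rRNA libraries). TNFRSF10B (DR5), a receptor for the death ligand TRAIL that is induced by both p53 and DDIT3, had 56.1, 65.6, 56.4 and 71.1 CPM in Combo, against 23.8, 26.1, 25.1 and 29.02 CPM in Vehicle. It rose (log2 fold change 1.26 ± 0.19 (SE), adjusted p = 7.54e-05) with no overlap. FAS, the other death receptor named, fell by 1.23 ± 0.20 (adjusted p = 0.000119). The death-promoting BCL2 relatives BBC3 (PUMA) and HRK rose by 1.06 ± 0.18 and 1.09 ± 0.10, and BID fell by 0.70 ± 0.11 (adjusted p = 0.000226, 9.57e-07 and 0.000120). GADD45A, a growth arrest gene, rose by 0.89 ± 0.12 (adjusted p = 2.49e-05). Of 19 NRF2 targets 1 rose, HMOX1, the haem oxygenase (0.88 ± 0.10), and 5 fell, including the thioredoxin reductase TXNRD1 (-0.49 ± 0.10). In the higher-rRNA libraries 4 of the NRF2 targets rose and 6 fell, with a median of 0.02, against -0.19 with all libraries. Of 7 targets of the aryl hydrocarbon receptor 1 rose and 1 fell.

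Feedback genes of MAP kinase signalling rose. Of 21 immediate early and feedback genes 11 rose and 1 fell (52.4% and 4.76%, median 0.53; 12 and 1 in the higher-rRNA libraries). NR4A1, an orphan nuclear receptor (chromosome 12, 52022832 to 52059507), had 18.9, 16.8, 18.0 and 21.2 CPM in Combo, against 7.05, 9.16, 6.66 and 7.03 CPM in Vehicle. Vehicle replicate 2 was above the other Vehicle libraries and below every Combo library (log2 fold change 1.33 ± 0.11 (SE), adjusted p = 4.24e-07). Its relative NR4A3 rose by 1.77 ± 0.28, the phosphatase DUSP6 by 1.496 ± 0.20 and the inhibitor SPRY4 by 1.53 ± 0.24 (adjusted p = 9.52e-05, 2.72e-05 and 0.000114). FOS was the member that fell, by 1.64 ± 0.32 (adjusted p = 0.000602). Of 11 targets of BMP and TGF-beta 5 fell and 2 rose (4 and 2 in the higher-rRNA libraries). The BMP-induced genes ID2, ID4 and SMAD6 fell by 1.22 ± 0.26, 1.72 ± 0.31 and 1.11 ± 0.21 (adjusted p = 0.00134, 0.000356 and 0.000453), while SKIL, known as a TGF-beta target, rose by 0.71 ± 0.16 (adjusted p = 0.00167).

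Antigen presentation genes of MHC class I fell. Of 14, 8 fell and 0 rose (57.1%, median -0.62); in the higher-rRNA libraries 8 fell and 1 rose. PSMB9, a subunit of the immunoproteasome, had 6.31, 4.39, 8.41 and 3.45 CPM in Combo, against 20.6, 28.3, 20.2 and 11.8 CPM in Vehicle. The Vehicle libraries varied widely, and the groups did not overlap (log2 fold change -1.85 ± 0.45 (SE), adjusted p = 0.00362). ERAP2, a peptidase that trims peptides for presentation, had 30.7, 40.4, 34.5 and 19.6 CPM in Combo, against 106, 116, 109 and 113 CPM in Vehicle. It also fell (log2 fold change -1.82 ± 0.28 (SE), adjusted p = 9.33e-05). The peptide transporter TAP1, the light chain B2M and the immunoproteasome subunit PSMB8 fell by 1.37 ± 0.27, 0.95 ± 0.20 and 1.14 ± 0.27 (adjusted p = 0.000655, 0.00121 and 0.00317).

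The largest rises lay outside these pathways in part. NGFR, the low-affinity neurotrophin receptor (chromosome 17, 49495293 to 49515017), had 144, 90.7, 115 and 123 CPM in Combo, against 7.53, 7.19, 6.44 and 6.52 CPM in Vehicle. Every Combo library was many times above every Vehicle library (log2 fold change 4.09 ± 0.33 (SE), adjusted p = 4.00e-07). BEX2 had 52.4, 44.6, 44.0 and 30.6 CPM in Combo, against 4.34, 4.69, 4.45 and 4.11 CPM in Vehicle. It too was apart in all libraries (log2 fold change 3.29 ± 0.25 (SE), adjusted p = 1.82e-07), and its relative BEX4 rose from a low level to 7.34 ± 1.74 CPM, against 0.410 ± 0.119 CPM in Vehicle. Of 12 tested neural genes 6 rose, including CHGB, a protein of secretory granules (1.39 ± 0.14), and 4 fell (3 in the higher-rRNA libraries), including the neurofilament NEFH (-1.27 ± 0.29). The membrane trafficking GTPase RAB39B, the secretory granule protein ICA1, the phosphatase subunit PPP1R3B of glycogen metabolism and SIPA1L2, a regulator of RAP, rose by 2.36 ± 0.26, 2.32 ± 0.19, 2.33 ± 0.25 and 2.34 ± 0.33 (adjusted p = 4.78e-06, 4.01e-07, 3.60e-06 and 3.82e-05). Among the rises with the smallest p were ANK2, an adaptor between membrane and cytoskeleton (1.64 ± 0.12), and DLG3, a scaffold of cell junctions (1.32 ± 0.10). The largest fall among genes that met the rule for named genes was NRGN, a calmodulin-binding protein of neurons, with 1.25, 0.937, 1.12 and 0.891 CPM in Combo, against 10.3, 8.58, 10.6 and 7.58 CPM in Vehicle. Levels were low in Combo, near 1 CPM (log2 fold change -3.14 ± 0.35 (SE), adjusted p = 4.40e-06). FAM222A, whose function is little known, fell by 2.98 ± 0.38 (adjusted p = 1.53e-05).

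The combination was next compared with each compound alone in H1703. With all libraries, 355 genes differed between Combo and MYCi975 (1.7%; 140 or 0.672% higher, 215 or 1.03% lower). Without the library labelled MYCi975 replicate 4, 4548 did (21.4%; 2149 or 10.1% higher, 2399 or 11.3% lower), among them all 355. Leaving out Combo replicates 1 to 4 in turn gave 83, 142, 94 and 47 genes, and leaving out MYCi975 replicates 1 to 3 gave 26, 26 and 28, so the count depended on every library of the pair. Against TMP195, 1014 genes differed (4.87%; 396 or 1.9% higher, 618 or 2.97% lower). That count was 2719 without MYCi975 replicate 4, which shares the estimate of spread, and 652, 576 and 125 without Combo replicates 1, 3 and 4. It was 163, 218, 336 and 989 without TMP195 replicates 1 to 4. Values against TMP195 below are from the fit of all H1703 libraries, while values without MYCi975 replicate 4 are from another fit. No gene or list values are given without TMP195 replicate 4. Each compound alone was also compared with the same Vehicle libraries, which gave 2116 genes for MYCi975 (10.2%; 6.04% higher, 4.12% lower) and 2009 for TMP195 (9.65%; 6.07% higher, 3.57% lower). Without replicate 4, MYCi975 gave 1190 (5.61%; 3.27% higher, 2.34% lower). These comparisons share the Vehicle libraries with the main one, so their values are set side by side and not tested for likeness.

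DNA replication genes were lower in Combo than under either compound. Of 38, 17 were lower than with MYCi975 (33 without its replicate 4, where 11.3% of all genes were lower) and 31 lower than with TMP195, against 2.97% of all genes. PCNA had 82.6, 81.4, 87.8 and 43.8 CPM in the MYCi975 libraries and 87.5, 84.2, 84.9 and 79.6 CPM in the TMP195 libraries. MYCi975 replicate 4 was near the Combo level and the others well above it. The difference, Combo minus MYCi975, was -0.98 ± 0.16 (adjusted p = 0.00892; -1.17 ± 0.10 without replicate 4), and Combo minus TMP195 was -1.17 ± 0.16 (adjusted p = 0.00628). FAM111B and TK1 had differences of -1.44 ± 0.25 and -1.19 ± 0.25 from MYCi975 (adjusted p = 0.0116 and 0.0293; -1.71 ± 0.13 and -1.47 ± 0.13 without replicate 4) and of -1.63 ± 0.26 and -1.24 ± 0.26 from TMP195 (adjusted p = 0.00766 and 0.0154).

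Mitotic genes gave another picture. Of 35, 0 differed from MYCi975 with all libraries and 4 were lower than with TMP195; without MYCi975 replicate 4, 11 were lower and 1 higher. KIF23 had 124, 122, 131 and 119 CPM with MYCi975 and 128, 121, 128 and 124 CPM with TMP195. Those values lie at or a little above the Combo range. Its differences were -0.10 ± 0.07 from MYCi975 (adjusted p = 0.398; -0.12 ± 0.07 without replicate 4) and -0.11 ± 0.07 from TMP195 (adjusted p = 0.323). Against Vehicle, 31 of 35 were lower with MYCi975 alone (30 without its replicate 4) and 30 with TMP195 alone.

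More endoplasmic reticulum chaperones differed between the combination and MYCi975 than between the combination and TMP195. In the fit of all libraries, 7 of 22 chaperones were higher in Combo than with MYCi975 and 1 higher than with TMP195. Without MYCi975 replicate 4, 11 were higher than with MYCi975. No count of this list against TMP195 is given for that fit. CREB3L2 had 34.3, 30.6, 31.1 and 30.2 CPM with MYCi975 and 62.1, 55.3, 58.7 and 58.5 CPM with TMP195. All MYCi975 libraries, replicate 4 included, lay at the Vehicle level. The difference from MYCi975 was 1.06 ± 0.08 (adjusted p = 1.21e-06; 1.03 ± 0.08 without replicate 4) and that from TMP195 0.16 ± 0.08 (adjusted p = 0.208). DNAJB9 had 11.1, 10.7, 10.0 and 15.2 CPM with MYCi975 and 21.2, 18.2, 18.5 and 22.4 CPM with TMP195. It was higher in Combo than under both, by 1.35 ± 0.13 (adjusted p = 5.75e-05; 1.503 ± 0.12 without replicate 4) and 0.58 ± 0.13 (adjusted p = 0.0196). Whether the difference from MYCi975 exceeded that from TMP195 was not tested.

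Of 20 cholesterol synthesis genes, 4 were lower in Combo than with MYCi975 (9 lower and 1 higher without replicate 4) and, against TMP195, 4 lower and 1 higher. SREBF2 and INSIG1 differed from MYCi975 by -0.67 ± 0.10 and -0.72 ± 0.13 (adjusted p = 0.00869 and 0.0145; -0.62 ± 0.10 and -0.64 ± 0.13 without replicate 4) and were at 0.22 ± 0.10 and 0.37 ± 0.13 against TMP195 (adjusted p = 0.205 and 0.104).

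**Figure D4:**
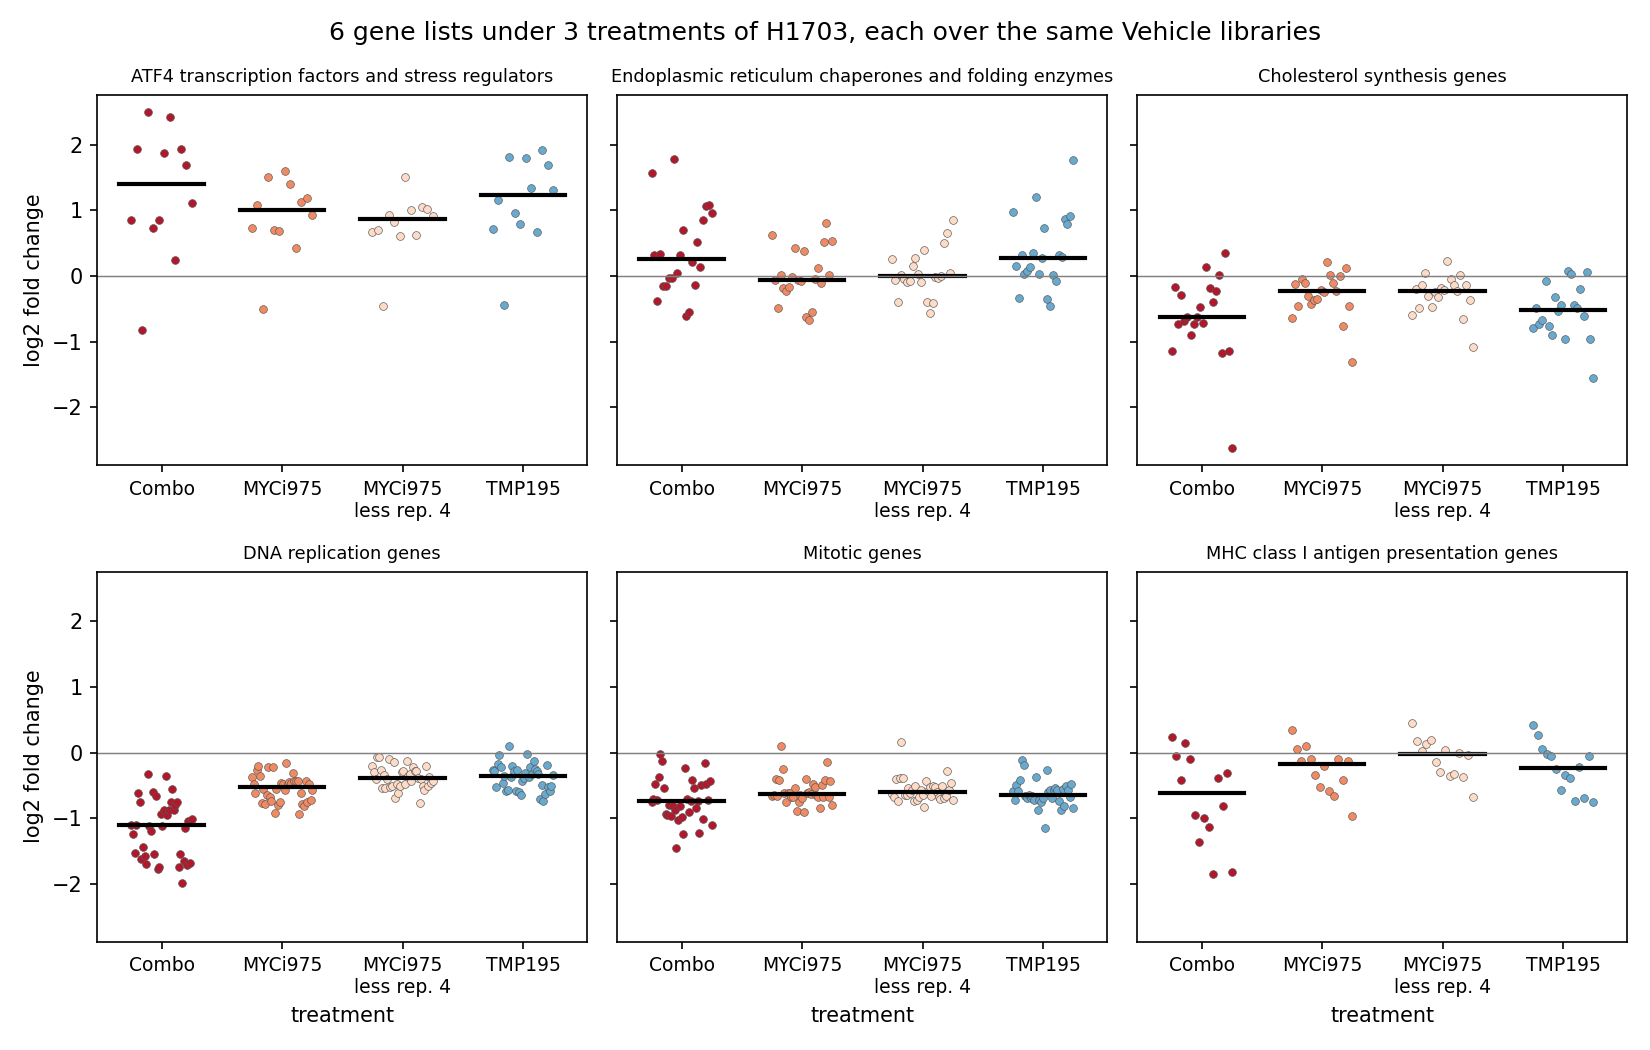
Log2 fold changes over the same 4 Vehicle libraries (y axis) of the members of 6 gene lists (points; bar, median) in H1703 with Combo, with MYCi975, with MYCi975 less its replicate 4, and with TMP195. DNA replication genes have a median of -1.11 in Combo, -0.52 with MYCi975 (-0.39 less its replicate 4) and -0.35 with TMP195, while mitotic genes have medians of -0.74, -0.63 (-0.59) and -0.65.

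Stress genes differed gene by gene. DDIT3 had 65.2, 57.1, 67.5 and 188 CPM with MYCi975 and 108, 88.1, 116 and 154 CPM with TMP195. The MYCi975 libraries other than replicate 4 were far below the Combo level. Its difference from MYCi975 was 0.99 ± 0.28 (adjusted p = 0.0692) with all libraries and 1.57 ± 0.16 (adjusted p = 5.56e-06) without replicate 4, and from TMP195 it was 0.69 ± 0.28 (adjusted p = 0.145). PPP1R15A was higher in Combo than with MYCi975 by 1.02 ± 0.22 (adjusted p = 0.0321; 1.42 ± 0.14 without replicate 4) and than with TMP195 by 1.08 ± 0.22 (adjusted p = 0.0153). TRIB3 and PCK2 differed from TMP195 by 0.07 ± 0.11 and -0.01 ± 0.07 (adjusted p = 0.721 and 0.969). DDIT4 was higher than with MYCi975 by 0.80 ± 0.14 (adjusted p = 0.0105; 0.88 ± 0.14 without replicate 4) and was at 0.01 ± 0.14 against TMP195 (adjusted p = 0.963). NGFR had 29.7, 22.3, 21.3 and 76.0 CPM with MYCi975 and 60.7, 53, 47.7 and 57.4 CPM with TMP195. Every Combo library was above these, by 1.65 ± 0.29 over MYCi975 (adjusted p = 0.0110; 2.27 ± 0.15 without replicate 4) and 1.11 ± 0.28 over TMP195 (adjusted p = 0.0349). Heat shock chaperones had 8 of 15 members lower than with TMP195, and 0 lower than with MYCi975 (10 without replicate 4).

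Other genes named by their difference from a compound alone were SLC16A6, a transporter (1.08 ± 0.20 from MYCi975, adjusted p = 0.0177; 1.41 ± 0.15 without replicate 4), H2AC12 (-1.48 ± 0.30 from MYCi975, adjusted p = 0.0246; -1.75 ± 0.21 without replicate 4) and, against TMP195, YPEL2 (1.45 ± 0.28), the zinc finger gene ZC3H6 (1.26 ± 0.31), CCNG2 (1.43 ± 0.35), SIPA1L2 (1.30 ± 0.31), CDKN2C (-1.74 ± 0.42) and the kinase HUNK (-1.25 ± 0.24), with adjusted p = 0.0131, 0.0310, 0.0309, 0.0282, 0.0303 and 0.0130.

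The effect of the combination in H1703 was last set against its mean effect in H460, H838 and H1755, in 1 fit of 32 libraries. It differed for 2441 of 24198 genes (10.1%), 1099 of them more positive in H1703 (4.54%) and 1342 more negative (5.55%). Without H1703 Combo replicate 4 the count was 1481. In the same fit the combination changed 5968 genes in H1703 (24.7%; 12.8% higher, 11.9% lower), 2453 in H460 (10.1%; 6.89% higher, 3.25% lower), 974 in H838 (4.03%; 2.68% higher, 1.35% lower) and 397 in H1755 (1.64%; 1.21% higher, 0.43% lower). DNA replication genes stood out by count. Of 38, 25 fell more in H1703, and the medians were -0.53 in H460, -0.42 in H838 and -0.31 in H1755. TK1 was at -1.96 ± 0.17 in H1703 and at -0.59 ± 0.16, -0.59 ± 0.16 and -0.47 ± 0.16 in H460, H838 and H1755, a difference of -1.42 ± 0.19 (adjusted p = 1.26e-05). FAM111B differed by -1.90 ± 0.25 and CDKN2C by -2.29 ± 0.35 (adjusted p = 7.59e-06 and 7.84e-05). Mitotic genes had medians of -0.57, -0.64 and -0.33 in the other lines, and 1 of 35 was more negative in H1703 by this test.

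In the same test 6 of 20 cholesterol synthesis genes were more negative in H1703. Among MHC class I genes 6 of 14 were more negative, where medians in the other lines were 0.16, -0.10 and 0.11 and PSMB9 differed by -1.41 ± 0.40 (adjusted p = 0.0209). Of 15 heat shock chaperones 6 were more negative. Amino acid and folate enzymes rose less in H1703, with 8 of 14 more negative and medians of 1.89, 1.43 and 0.70 in the other lines, against 0.42 in the fit of H1703 alone. CHAC1 was at 1.12 ± 0.31 in H1703 and at 5.47 ± 0.40, 4.15 ± 0.40 and 1.65 ± 0.40 in H460, H838 and H1755, a difference of -2.63 ± 0.39 (adjusted p = 4.34e-05). GDF15 and DDIT3 differed by 0.37 ± 0.91 and 1.11 ± 0.39 and missed the threshold (adjusted p = 0.886 and 0.0715). PPP1R15A rose more in H1703, by 1.21 ± 0.28, and NGFR by 1.91 ± 0.43 (adjusted p = 0.00490 and 0.00342).

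**Figure D5:**
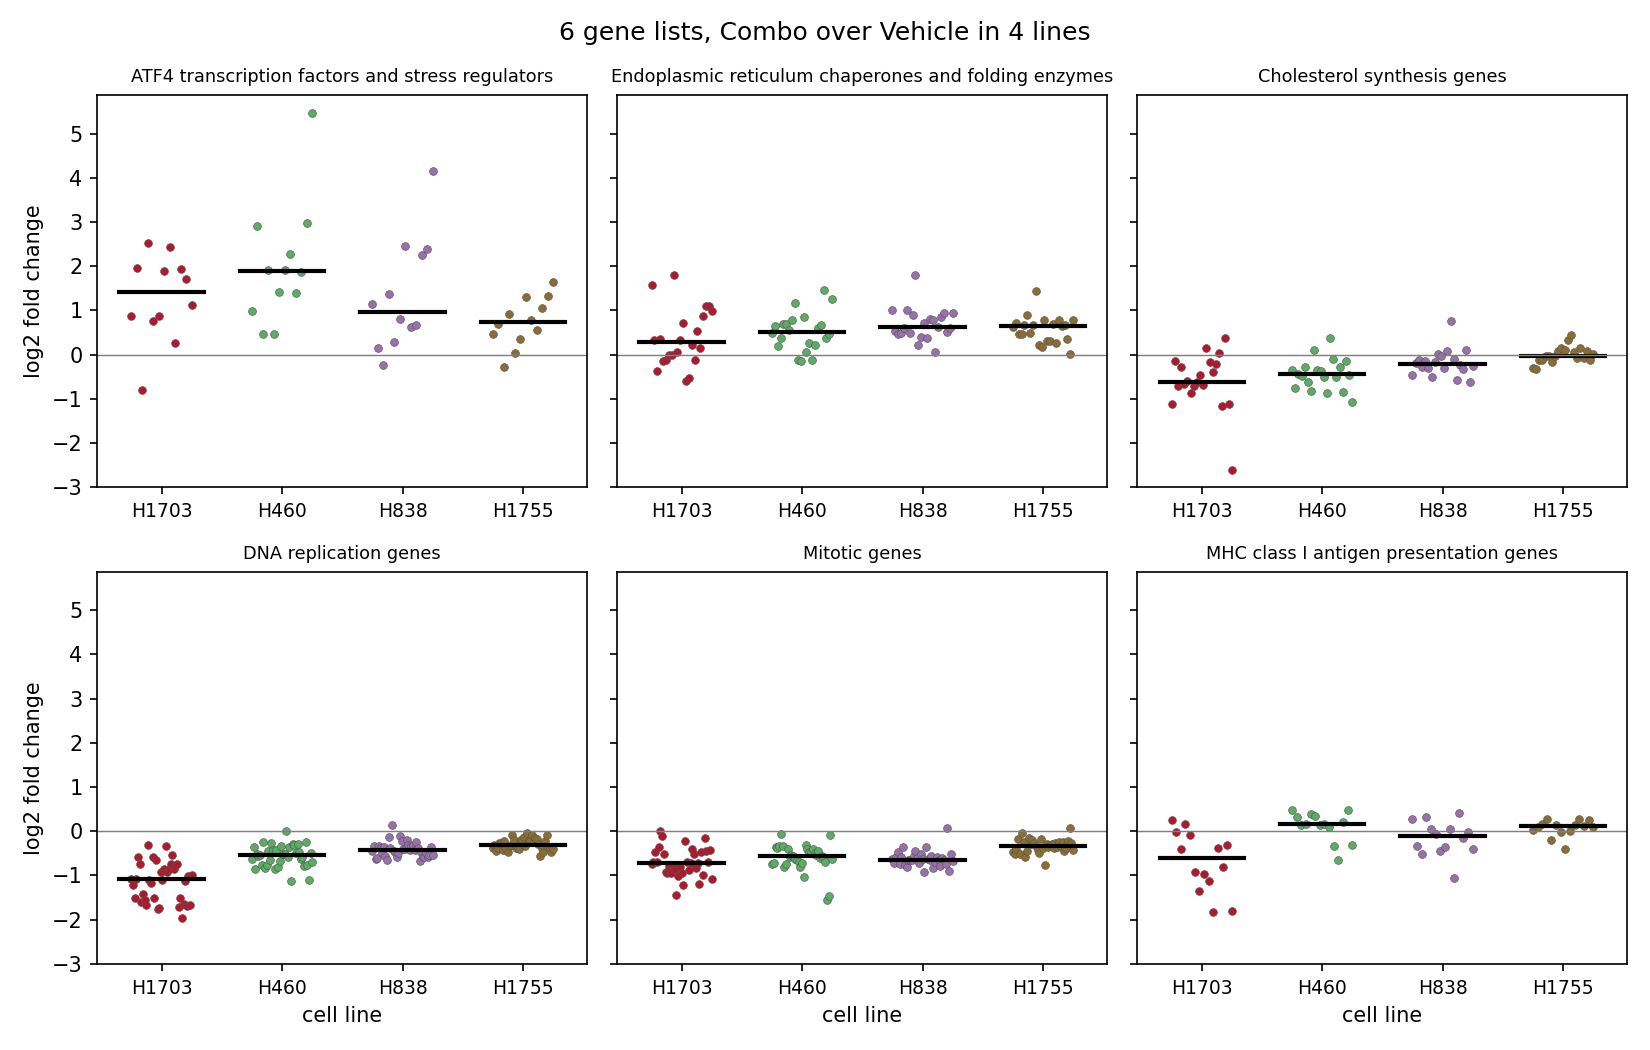
Log2 fold changes, Combo over Vehicle (y axis), of the members of 6 gene lists (points; bar, median) in each of 4 lines (x axis), from 1 fit of 32 libraries. The DNA replication and MHC class I points of H1703 reach lower than those of the other lines. ATF4-linked factors and stress genes have their highest points, both CHAC1, in H460 (5.47 ± 0.40) and H838 (4.15 ± 0.40).

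The largest differences from the other lines at a mean of 5 CPM or more over the 32 libraries were, among more positive effects, SIX2, a homeobox factor of kidney progenitors (2.81 ± 0.37), PPP1R3B (2.58 ± 0.26), BHMT2, a methyltransferase of methionine metabolism (2.47 ± 0.57), and SIPA1L2 (2.27 ± 0.22), with adjusted p = 1.11e-05, 1.52e-07, 0.00466 and 1.45e-07. Among more negative effects they were the growth factor WNT7B (-3.12 ± 0.48), NPTX1, a secreted pentraxin of neurons (-2.84 ± 0.29), CHAC1 and NRGN (-2.40 ± 0.52), with adjusted p = 8.25e-05, 1.99e-07, 4.34e-05 and 0.00242. SIX2 had 1.66, 1.53, 2.15 and 2.23 CPM in Combo, against 0.796, 0.447, 0.648 and 0.513 CPM in Vehicle in H1703. Those levels were low, and the large difference came with a fall in H460 (-2.42 ± 0.34). WNT7B had 0.896, 0.809, 1.25 and 0.111 CPM in Combo, against 3.07, 3.89, 6.05 and 3.12 CPM in Vehicle. Combo was below Vehicle in H1703, while H460 was at 1.93 ± 0.52.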

How the data were processed

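Total RNA was sequenced after NucleoSpin purification and SMARTer stranded library preparation, per the labels' protocols. Reads were processed with Trimmomatic, STAR and featureCounts on GRCh38, per the submitters' processing notes; versions, annotation and strand setting are not given in the sources used here. The authors deposited 1 table of raw counts per gene, whose columns were matched to samples by name. All 16 H1703 libraries entered 1 fit of 4 group means in edgeR 4.0.16 in R 4.3.3 (filterByExpr, TMM, quasi-likelihood F test, Benjamini-Hochberg adjustment over all genes, called below 0.05), and the 32 Combo and Vehicle libraries of 4 lines another. SE is the log2 fold change over the square root of F. 

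The members and lists were chosen with earlier results of these data known. Named genes are the targets; the 10 largest rises and falls at 5 CPM or more without overlap; the 5 rises and falls with the smallest p; up to 4 members of each list and the 1 most against its median; and the 4 largest per direction in the other comparisons. MT-CO1, MT-ND4, MCM6, ATF4, ATF3, HSPA5, CCNB1, E2F1, CDKN1A and genes whose promoters are shown were added after their values were seen. Alternatives were DESeq2 1.42.0, RLE, no filter, the 8 libraries alone, a replicate block, a term for library set, 1 set alone, leaving mitochondrial and abundant non-coding RNA out of the table, and leaving out each library; leaving out MYCi975 replicate 4 throughout and MT-CO1 from the mitochondrial sum were chosen after seeing the data. No label pairs replicates by number, so they were not taken as pairs in the main fit. Same-numbered Combo and Vehicle libraries correlated at 0.270 to 0.440 for replicates 1, 3 and 4. For replicate 2, whose Combo library is in the lower-rRNA set and whose Vehicle library is not, the value was -0.088. Data were simulated for Combo against Vehicle over 20827 genes, of which 200 were changed, with no difference between library sets. The fit recovered 80 of 100 genes with a log2 change of 1 and 26 of 100 with 0.5, with 0 false among 106 calls. Promoter sequences are from RefSeq (GRCh38.p14), and gene positions from GENCODE on GRCh38. Results for some genes are not reported here. Figures used matplotlib 3.10.9 in Python 3.11.15.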

Additional observations from a re-analysis of the deposited data

Results flagged for a closer look

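In groups of 4 libraries, 7 of 78 groups had 1 library set far from the other 3 by Dixon's test at 95%, which chance alone gives in about 1 of 20 groups. They were PCK2 in Vehicle replicate 4 (49.8 CPM), TK1 in Combo replicate 4 (13.7 CPM), KIF20B in Combo replicate 2 (91.0 CPM) and NR4A1 in Vehicle replicate 2 (9.16 CPM). On the line from the Vehicle mean (0) to the Combo mean (1) they were MYCi975 replicate 4 (1.00), TMP195 replicate 4 (0.699) and Vehicle replicate 4 (0.261).

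The combination's effect differed between H1703 and the mean of the other 3 lines for 2441 genes. That is 10.1% of all genes tested. Genes were named here because this difference, or their change in H1703, was among the largest. For those chosen by the difference, passing the test follows from the choice, so the values are given as a description. Of 24 genes compared, 19 passed and are listed, while GDF15, BEX2, DDIT3, ICA1 and H2AC4 did not. On the log2 scale and in H1703 minus the other lines, the positive differences were 1.91 for NGFR, 1.21 for PPP1R15A, 1.07 for RAB39B, 2.27 for SIPA1L2, 2.58 for PPP1R3B, 1.85 for CCNG2, 2.81 for SIX2 and 2.47 for BHMT2. On the negative side they were -2.40 for NRGN, -2.29 for CDKN2C, -2.30 for FAM222A, -1.90 for FAM111B, -1.51 for H2AC12, -1.42 for TK1, -1.41 for PSMB9, -1.08 for PCLAF, -3.12 for WNT7B, -2.84 for NPTX1 and -2.63 for CHAC1.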

How the results depend on the processing

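The count of genes called in Combo against Vehicle (7986) stayed within 1.5 times under every alternative computed, from 6419 without Combo replicate 4 to 10515 with the replicate block, with 8311 under DESeq2. Of 168 genes given with a value, 163 were called, all kept their direction under every alternative, and 159 were also called under every one; HDAC4, HDAC9, FARSA and BHMT2 were not. The counts against MYCi975 (355) and TMP195 (1014) moved with the setting, and the cause was not tested. DESeq2 gave 1365 and 2119, no filter 850 against MYCi975, the 8 libraries of the pair alone 4 and 1533 (3200 genes at an unadjusted p below 0.05 against MYCi975), the term for library set 1841 and 2665, and the higher-rRNA libraries alone 3568 and 2337. Without 1 library each they ran from 26 to 4548 and from 125 to 2719. The replicate block gave 4440 and 5002, and 5877 for H1703 against the other lines (2441); numbers pair these samples by no label, and 3 of 4 Combo libraries correlated best with their own number. Without 1 H1703 library each the count between lines ran from 1481 to 2277. The share of mitochondrial mRNAs kept its direction without 1 library each, with exact permutation p = 0.0571 to 0.171. With the replicate block 21 complex I subunits fell and 2 rose, and 29 subunits of complexes II to V fell; with the library-set term 5 NRF2 targets rose and 7 fell. Values near 0 that changed sign were HDAC7 (0.00), at -0.00952 under DESeq2 and RLE, -0.00892 in the 8 libraries, -8.48e-05 without mitochondrial and abundant RNA and -0.101 to 0.0637 without 1 library each; MT-ND4 (-0.18), at 0.0239 with the library-set term and 0.0122 without Combo replicate 2 and with a term for replicate 4; MT-CO1 (-0.01), at 0.0424 in the higher-rRNA libraries and -0.0797 to 0.0297 without 1 library each; MAX (-0.07), at -0.176 to 0.00254; and CDKN1A (-0.13), at -0.36 to 0.0134. In the simulation at 4 libraries a group, changes of 0.5 on the log2 scale were often missed. It changed 200 of 20827 genes, where 38.3% were called in the data, so its recovery does not measure what was missed here.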
